A study of Mus musculus with 27 samples.

Results

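The nucleus accumbens (NAc), the ventral part of the striatum, receives the axons of midbrain dopamine neurons, whose cell bodies lie mainly outside it. Of the 27 RNA libraries of the series, 6 are of cells sorted for the dopamine transporter (DAT) from the NAc at postnatal days 30 and 60 (P30 and P60), and the design calls these ages juvenile and adult. All mice were C57/BL6, and no treatment or transgene is named in the labels. Each age has 3 libraries, numbered 1, 2 and 3 at P30 and 1, 3 and 4 at P60, and these numbers define the 2 groups compared. The design gives 5 mice per age, but the labels do not tie libraries to mice. The p-value of a gene therefore reflects how much libraries vary within groups, taken over all 27 libraries. Part of that variation may be technical. The library titles of each age share a date-like prefix and a code of their own, whose meaning the labels do not give, so age and whatever this code marks cannot be told apart.

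DAT, encoded by Slc6a3, returns released dopamine to the axon terminal, and tyrosine hydroxylase, encoded by Th, starts the synthesis of dopamine. Most neurons of the NAc are GABAergic projection neurons that carry dopamine receptors, joined by interneurons that make parvalbumin, somatostatin or acetylcholine. Between these ages myelin is still being laid down, oligodendrocyte precursors give rise to myelinating cells, and microglia, the resident macrophages, are already in place.

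Values are FPKM rescaled so that the sum of value times length in kb is 1000000 in each library, and they are called levels here. The libraries held 6660850 to 13283346 reads in genes. Genes with a read numbered 16779 to 17928 at P30 and 17117, 11962 and 14707 in P60 replicates 1, 3 and 4, so P60 replicate 3 had the fewest. The share of reads from mitochondrial genes was 7.17% ± 1.05 (SD, n = 3) at P30 and 20.54% ± 2.15 (SD, n = 3) at P60, without overlap. The exact two-sided permutation p was 0.1, the smallest that 3 libraries against 3 allow.

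The sorted label was checked against marker genes. Slc6a3 had levels of 0, 2.32 and 0 at P30 and 3.25, 0 and 0 at P60. Pitx3 and Foxa2, transcription factors of midbrain dopamine neurons, had no read in any of the 6 libraries, and the summed level of the 14 dopaminergic markers was 12.8 to 23.0 at P30 and 21.8 to 60.9 at P60. The summed level of 16 homeostatic microglial markers was 5883 to 8277 at P30 and 2397 to 3780 at P60, and that of 14 astrocyte markers 2540 to 3568 and 2352 to 3623. The markers of dopamine neurons were therefore close to absent while those of microglia and astrocytes were high, which goes against the label, and the libraries are called NAc sorted cells. In bulk RNA, fewer cells of a type and less RNA per cell cannot be told apart.

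The comparison asks how the RNA of these sorted cells differed between P30 and P60. Genes of neurons, of myelin and of the mitochondrial genome were among those higher at P60, and genes of oligodendrocyte precursors, microglia, lysosomes and cholesterol synthesis among those lower. Of 18888 genes tested with limma (adjusted p under 0.05 over all of them), 170 were higher and 327 lower at P60, 0.900% and 1.73% of those tested, or 2.63% in either direction. The median difference over all genes was -0.33 on the log2 scale, with 34.0% of genes positive and 62.4% negative. P60 libraries lay above all P30 libraries in 5.48% of genes and below them in 14.7%. The spread was estimated from all 27 libraries. With the 6 NAc libraries alone no gene passed, the smallest adjusted p was 0.0553 and 2648 genes had an unadjusted p under 0.05. Of the 327 lower genes 243 had fewer than 3 reads in P60 replicate 3. Without that library 157 genes were higher and 131 lower. With VTA P30 replicate 3 left out as well, 374 were higher and 543 lower, and without 4 sparse libraries 518 and 840. These 4 were replicate 3 of VTA P30, NAc P60 and SNc P60, and VTA P60 replicate 2. They were not the 4 with the fewest genes: SNc P30 replicate 1, with 12437 genes with a read, was kept. SNc P60 replicate 3 had 12736 and VTA P60 replicate 2 had 12914. The mitochondrial share of reads and the number of genes with a read moved with age, and their part in the counts of higher and lower genes was not tested.

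How the calls split by direction depends on the scaling and on how low values enter the fit. Genes higher made up 34.2% of the calls on the rescaled values, 52.5% on the values as deposited, 57.2% after quantile normalization, 44.9% after rescaling to non-mitochondrial reads and 15.1% with voom on recovered reads. With a pseudocount of 0.1 on the rescaled values the share was 30.3%. The fit of the values as deposited took in VTA P30 replicate 3 in its other unit. Its sum of value times kb was 55601698, against 670534 to 948735 in the 6 NAc libraries. That unit enters the shared spread, so its part in the calls on deposited values cannot be told apart from that of the scaling. The median over all genes moved as well, from -0.87 with voom and -0.67 with that pseudocount to 0.02 after quantile normalization. The lists described hereafter were picked with earlier results known. Their members made up 645 distinct tested genes, of which 37 were called, 5.74% against 2.63% of all genes.

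**Figure D1:**
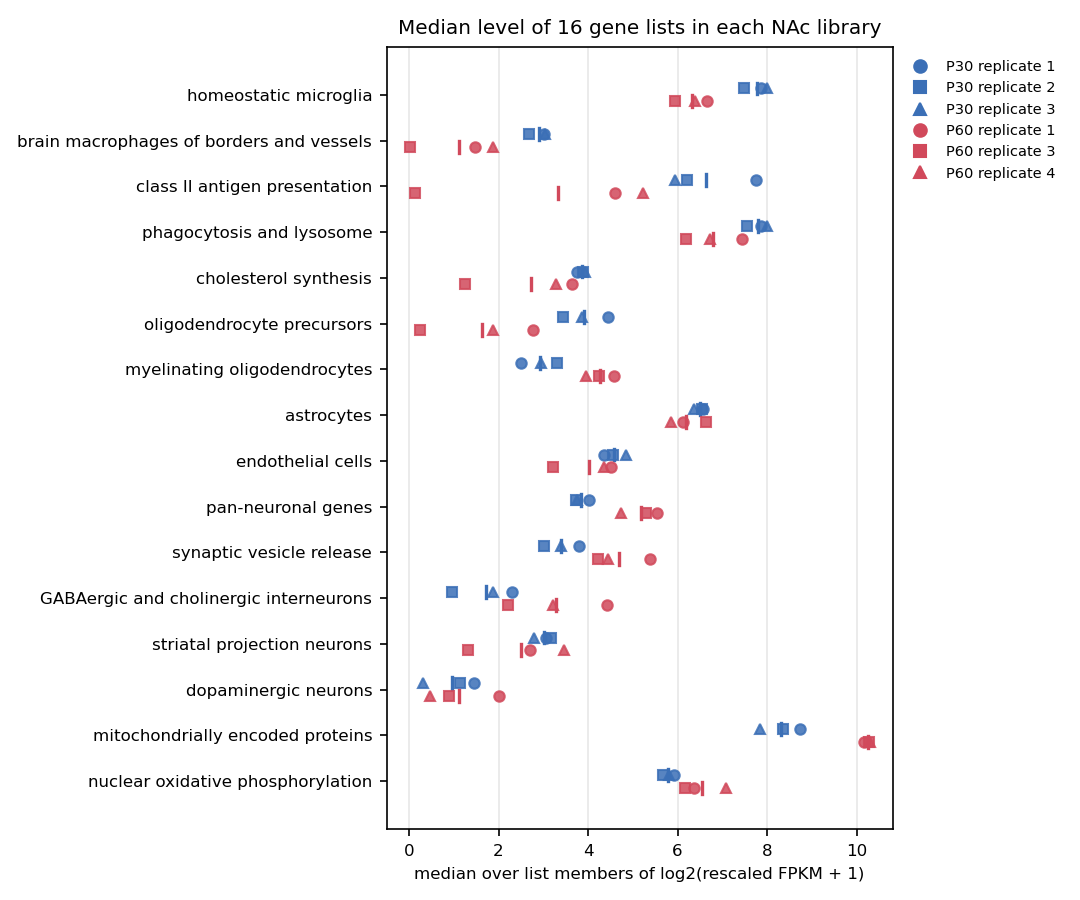
Median level of 16 gene lists in each NAc library, as the median over list members of log2(rescaled FPKM + 1). Points are libraries (3 at P30 in blue, 3 at P60 in red), vertical bars are group means. The P60 libraries sit above all P30 libraries for myelin, pan-neuronal, synaptic vesicle and mitochondrially encoded genes, and below them for microglial, border macrophage, lysosomal and oligodendrocyte precursor genes.

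Several genes expressed in neurons were among the 12 largest increases. The 12 largest changes in each direction were taken only from genes whose groups did not overlap, so their separation was set by that choice. Cck encodes cholecystokinin, a peptide released by interneurons and cortical neurons, and lies at chr9:121489824-121495694 (GRCm38). Its level was 8.29, 0.548 and 0.805 in P30 replicates 1, 2 and 3 and 118, 35.6 and 153 in P60 replicates 1, 3 and 4. Every P60 library lay above every P30 library, with a log2 difference of 4.89 ± 0.86 (SE) and an adjusted p of 0.00294. Pcsk1n, which encodes an inhibitor of the prohormone convertase PC1, was at 6.46, 6.00 and 4.93 at P30 and at 294, 89.3 and 175 at P60. The P30 libraries were close together and all far below P60 (4.63 ± 0.76, adjusted p 0.00161). It overlaps Eras in the annotation, and strand use in counting is not given in the sources used here.

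Pvalb and Calb2 encode the calcium-binding proteins parvalbumin and calretinin, each made by a class of interneuron. Pvalb was at 5.10, 0.412 and 0 at P30 and at 20.5, 39.6 and 62.7 at P60 (log2 difference 4.22 ± 0.75, adjusted p 0.00327). Calb2 was at 1.69, 1.80 and 0 at P30 and at 56.8, 46.2 and 30.8 at P60 (4.50 ± 1.07, adjusted p 0.0229). Both rose without overlap, as the choice of the largest increases required. The call on Calb2 was lost without P30 replicate 3, P60 replicate 1 or P60 replicate 3, with an adjusted p of up to 0.0868. Of the 11 tested markers of GABAergic and cholinergic interneurons, Cck and Pvalb rose, none fell, and 8 had a positive difference. Among those not called, Sst, which encodes somatostatin, was at 3.96, 10.1 and 5.00 at P30 and 40.6, 11.9 and 73.2 at P60 (adjusted p 0.192), and Gad1, which makes GABA, had a log2 difference of 1.32 (adjusted p 0.281).

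The promoters of Cck and Syn1 are shown as examples of genes that rose, and their windows hold letters of the cAMP response element, the site of the activity-regulated factor CREB. Each is the RefSeq sequence of GRCm38.p6 from 250 bases before to 50 after the start of the gene, 5′ to 3′ on the gene's strand, with the match in capitals. The Cck window, chr9:121495645-121495944 on the minus strand, holds the half-site CGTCA at -47. The Syn1 window, chrX:20920869-20921168 on the minus strand, holds the full palindrome TGACGTCA at -159, which contains the half-site on both strands.
Cck: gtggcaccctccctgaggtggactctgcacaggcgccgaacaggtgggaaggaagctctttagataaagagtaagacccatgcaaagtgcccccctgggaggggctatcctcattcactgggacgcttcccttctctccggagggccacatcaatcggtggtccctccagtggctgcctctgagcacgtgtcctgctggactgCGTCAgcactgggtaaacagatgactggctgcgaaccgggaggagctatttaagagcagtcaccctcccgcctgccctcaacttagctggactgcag
Syn1: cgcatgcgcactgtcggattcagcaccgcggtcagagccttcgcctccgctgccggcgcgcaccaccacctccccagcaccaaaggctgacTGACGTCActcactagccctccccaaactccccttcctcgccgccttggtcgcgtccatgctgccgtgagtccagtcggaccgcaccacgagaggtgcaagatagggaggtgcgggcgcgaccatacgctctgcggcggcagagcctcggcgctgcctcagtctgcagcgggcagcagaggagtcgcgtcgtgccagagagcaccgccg
Searched on both strands, the half-site occurs in 20.8% and the full palindrome in 1.79% of 32851 RefSeq promoter windows of this length. The half-site also stands in the windows of Tcta, a gene that fell (-49), and of Neurod2 (-31) and Rtn4r (-30), which rose. No window of Avp, Ptgds, Pcsk1n, Pvalb, Nrgn, Vsnl1, Rph3a, Mobp or Opalin, which rose as well, holds it. The match is a description of the letters only.

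Among general neuronal genes, Snap25, which encodes a membrane protein of the synaptic fusion machinery, was at 17.3, 13.97 and 12.3 at P30 and 176, 90.5 and 53.4 at P60. It rose without overlap by 2.64 ± 0.66 on the log2 scale (SE, adjusted p 0.0283). Nefl, the light chain of neurofilaments, rose by 2.62 (adjusted p 0.0229). Of the 14 pan-neuronal genes these 2 were called, none fell, 12 had a positive difference and 9 had P60 libraries all above P30. The list's median was 1.23, against -0.33 over all genes, and its summed level was 195 to 322 at P30 and 556 to 853 at P60. Stmn2 (1.73, adjusted p 0.113) and Syp (1.31, adjusted p 0.198) did not pass.

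Syn1, a phosphoprotein that tethers synaptic vesicles, was at 3.55, 2.56 and 3.50 at P30 and 44.8, 60.4 and 18 at P60 (log2 difference 3.17 ± 0.66, adjusted p 0.0116). Of 22 genes of synaptic vesicle release, Snap25 and Syn1 rose, 20 had a positive difference, 11 had P60 libraries all above P30, and the median was 1.22. Nrgn, which encodes the calmodulin-binding protein neurogranin of forebrain excitatory neurons, was at 5.69, 8.95 and 4.86 at P30 and 126, 58.0 and 158 at P60 and rose by 3.86 ± 0.62 (adjusted p 0.00147). It was the 1 gene called among 5 tested markers of glutamatergic neurons, whose median was 1.97. Homer1, a scaffold of the postsynaptic density, rose by 2.15 (adjusted p 0.0193) as the 1 gene called of 22 glutamate receptors and scaffolds, whose median was 0.33. The calls on Snap25, Nefl, Syn1 and Homer1 were all lost without P60 replicate 3, with adjusted p of 0.0652, 0.0709, 0.0508 and 0.0826. Snap25 and Nefl also lost theirs without P30 replicate 1 or 3, Snap25 without P30 replicate 2 or P60 replicate 1, and Homer1 without P30 replicate 2.

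Further neuronal genes among the increases were picked after their values were seen. Neurod2, a transcription factor of excitatory forebrain neurons, had no read at P30 and levels of 11.3, 24.8 and 8.09 at P60, at least 118-fold higher against a floor of 3 reads per library (adjusted p 0.00126). Vsnl1, a neuronal calcium sensor, rose from 1.56, 0.731 and 2.00 to 62.0, 36.5 and 16.1 (log2 difference 3.86, adjusted p 0.00439). Rtn4r, the Nogo receptor, had no read at P30 and was at least 66.0-fold higher (adjusted p 0.00217). Rph3a, a vesicle protein, rose by 3.12 on the log2 scale, Vgf, a secreted neuronal precursor, by 3.10, and Nrn1, which promotes neurite growth, by 3.19. Nap1l2, a neuronal histone chaperone among the 12 largest increases, rose from 0.519, 0 and 0.914 to 30.8, 43.3 and 10.3 (4.14, adjusted p 0.00147). Each of these genes kept P60 libraries above all P30 libraries.

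Few markers of striatal projection neurons passed. Drd1, the receptor of direct-pathway projection neurons, was at 3.14, 1.93 and 0.290 at P30 and 4.36, 1.51 and 0 at P60 (adjusted p 0.992). Drd2, that of indirect-pathway neurons, was at 2.78, 8.08 and 2.12 and at 0, 26.0 and 10.1 (adjusted p 0.77). Of 17 tested markers of striatal projection neurons 9 had a positive difference. Adora2a, which encodes the adenosine receptor of indirect-pathway neurons, was the 1 gene called and fell from 12.5, 20.7 and 12.6 to 3.81, 0 and 0.235 (-3.13 ± 0.59, adjusted p 0.00508). The list's median was 0.23 and turned to -0.14 with voom and with a pseudocount of 0.1. The median over all genes was -0.87 and -0.67 in those fits, so the list stayed above it.

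No dopaminergic gene passed in limma on the rescaled values. Th had no read at P30 and levels of 7.17, 20.1 and 3.28 at P60, at least 61.4-fold higher against the floor of 3 reads per library, with an adjusted p of 0.0726. With voom on recovered reads and with vooma its adjusted p was 0.0228 and 0.0383, and these were the fits that called a gene of the list. Slc18a2, the vesicular monoamine transporter, was at 1.73, 0.864 and 0.947 at P30 and 2.46, 2.44 and 0 at P60. Ddc, which makes dopamine from L-DOPA, had an adjusted p of 0.935 and Nr4a2, a transcription factor of dopamine neurons, of 0.58. Of the 10 markers tested 7 had a positive difference, with a median of 0.23, or -0.20 with voom and -0.12 without P60 replicate 1. The median over all genes was -0.87 with voom and -0.45 without that library.

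Genes of hormones and secreted carriers were also among the 12 largest increases. Ttr, which encodes transthyretin, a carrier of thyroid hormone made by the choroid plexus, was at 2.66, 7.27 and 0.370 at P30 and 475, 258 and 2192 at P60. It rose by 7.55 ± 1.06 on the log2 scale (SE, adjusted p 0.00073). With voom on recovered reads Ttr did not pass (adjusted p 0.122), and with vooma it did (0.000564). Ptgds, the prostaglandin D2 synthase of meninges, choroid plexus and oligodendrocytes, was at 19.5, 9.97 and 162 at P30 and 1297, 764 and 1327 at P60. It rose by 5.05 ± 1.06 (adjusted p 0.0121), a call lost without P30 replicate 2 (adjusted p 0.0585). In both genes all P60 libraries stood above all P30 libraries, a condition of their choice.

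The other choroid plexus genes on the list, picked after their values were seen, did not pass. Folr1 had levels of 0, 0 and 2.75 at P30 and no read at P60, Aqp1 was seen only in P60 replicate 4, at 10.4, and Kl was at 1.58, 3.75 and 0.0580 at P60 and at or near 0 at P30 (adjusted p 0.115). Of the 9 genes of ependyma and choroid plexus, Ttr rose and Tmem212 fell, and 4 had a positive difference, with a median of -0.64, or -1.02 with genes at 0 in 1 group set to their bound. The summed level was 140 to 143 at P30 and 272 to 2229 at P60, and Ttr made up most of it at P60. The part of choroid plexus RNA in the rise of Ttr was not tested.

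Avp, which encodes vasopressin, was at 0, 0 and 11.19 at P30 and 80.2, 75.4 and 170 at P60 (log2 difference 5.47 ± 1.05, adjusted p 0.00647). Gh, which encodes growth hormone, had no read in the P30 libraries and was at 47.2, 17.1 and 52.8 at P60, at least 85.9-fold higher (adjusted p 0.00112). Both groups were separate in both genes, again a condition of their choice. Pomc, another pituitary hormone precursor, was at 0.746, 1.84 and 6.49 at P30 and 7.83, 0 and 23.8 at P60, and Oxt, which encodes oxytocin, at 21.4, 0 and 0 and at 23.1, 2.78 and 13.3. Neither of these, picked after their values were seen, passed (adjusted p 0.688 and 0.294).

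**Figure D2:**
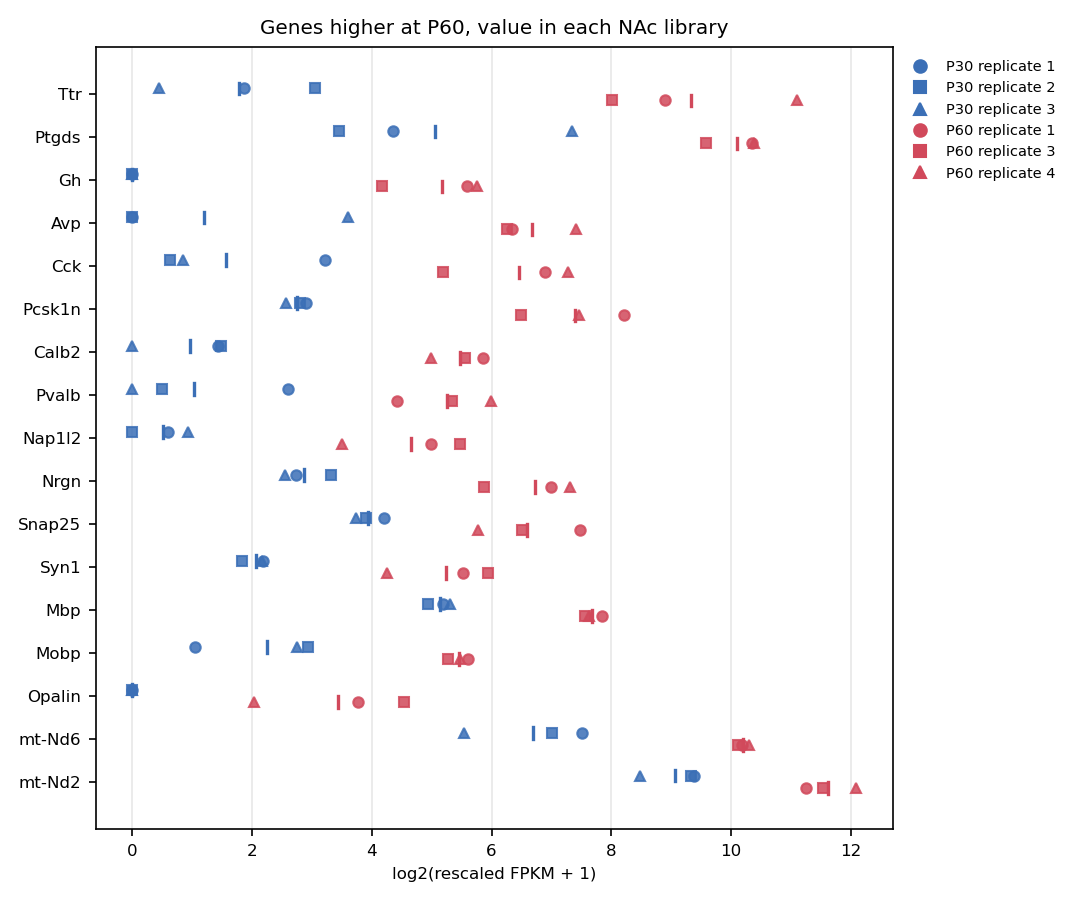
Levels of 17 genes higher at P60 in each NAc library, as log2(rescaled FPKM + 1). Points are libraries (3 at P30 in blue, 3 at P60 in red), vertical bars are group means. All P60 points lie above all P30 points of the same gene. Gh and Opalin are at 0 in all 3 P30 libraries.

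Myelin genes were higher at P60 and genes of oligodendrocyte precursors lower. Mbp, which encodes myelin basic protein, was at 35.5, 29.5 and 38.6 at P30 and 230, 187 and 196 at P60. Replicates were close at both ages, and the gene rose by 2.53 ± 0.52 on the log2 scale (SE, adjusted p 0.0102). Mobp, another structural protein of myelin, rose from 1.08, 6.68 and 5.72 to 47.7, 37.5 and 43.4 (3.20 ± 0.78, adjusted p 0.0266). Opalin, a membrane protein of mature oligodendrocytes, had no read at P30 and was at 12.6, 22.2 and 3.09 at P60, at least 59.3-fold higher (adjusted p 0.0194). Of 14 myelinating oligodendrocyte genes 3 rose, none fell, 11 had a positive difference and 6 had P60 libraries all above P30. The summed level was 268 to 291 at P30 and 566 to 708 at P60. The list was not uniform: Cnp and Mag, both proteins of the myelin sheath, had log2 differences of -0.20 and 0.21 (adjusted p 0.904 and 0.928). The calls on Opalin and Mobp were lost without P60 replicate 3 (adjusted p 0.0832 and 0.0603), and that on Mobp also without P30 replicate 1, P60 replicate 1 or P60 replicate 4 (up to 0.125).

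Gpr17 encodes a receptor found in precursors committed to differentiate. It was at 49.4, 29.2 and 33.0 at P30 and 8.49, 0.192 and 0.364 at P60, and fell by 3.90 ± 0.86 on the log2 scale (SE, adjusted p 0.0154). Neu4, a sialidase, was at 32.4, 26.7 and 18.03 at P30, at 7.21 in P60 replicate 1 and at 0 in the others (-3.69 ± 0.80, adjusted p 0.0145). Vcan, a matrix proteoglycan, fell from 11.23, 7.51 and 11.23 to 0.875, 0 and 3.20 (-2.45 ± 0.56, adjusted p 0.0194). In each of the 3 genes all P60 libraries were below all P30 libraries. Of 11 precursor genes 3 fell, none rose and 9 had a negative difference, with a median of -1.58. Pdgfra, the receptor that defines the precursors, was at 16.5, 11.21 and 15.8 and at 5.87, 12.3 and 2.51 and did not pass (adjusted p 0.356). All 3 calls were lost without P60 replicate 3 (adjusted p 0.0662 to 0.0877), those on Gpr17 and Neu4 also without P60 replicate 4, those on Gpr17 and Vcan without P30 replicate 1, and that on Vcan without P30 replicate 3.

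Microglial genes had lower levels at P60 throughout the list, though few passed. Cx3cr1, the fractalkine receptor, was at 318, 198 and 381 at P30 and 103, 77.9 and 13.2 at P60. It fell by 2.57 ± 0.62 on the log2 scale (SE, adjusted p 0.0252), with the groups apart. The annotated Cx3cr1 locus, chr9:119901616-120069879, overlaps 9 other genes. Selplg, the ligand of P-selectin and a microglial marker, fell from 634, 441 and 707 to 216, 156 and 97.9 (-1.96 ± 0.53, adjusted p 0.0467). Tmem119, a marker of resident microglia, was at 2129, 1672 and 2008 and at 716, 758 and 250, without overlap but short of the threshold (-1.90 ± 0.62, adjusted p 0.091). P2ry12, the purinergic receptor of ramified microglia, was at 1131, 889 and 977 and at 642, 451 and 70.3 (adjusted p 0.265).

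All 16 homeostatic microglial genes had a negative difference, 2 fell, and 8 had P60 libraries all below P30. The median was -1.39. C1qa, which encodes a complement component made by microglia, did not follow in every library, at 3963, 2422 and 3875 at P30 and 1918, 488 and 6463 at P60. Among 12 genes of border and vessel macrophages, Stab1, a scavenger receptor, was the 1 gene called and fell from 16.7, 20.99 and 23.1 to 5.53, 1.62 and 1.73 (-2.55, adjusted p 0.0198). Their summed level was 245 to 287 at P30 and 106, 12.1 and 566 in P60 replicates 1, 3 and 4, so it overlapped. The calls on Cx3cr1, Selplg and Stab1 were lost without several single libraries: Cx3cr1 without P30 replicate 1 or 3 or P60 replicate 4 (adjusted p up to 0.121), Selplg without any P30 library or P60 replicate 3 or 4 (up to 0.138), and Stab1 without P30 replicate 2 or 3 or P60 replicate 3 or 4 (up to 0.0695).

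Antigen presentation by class II molecules showed large but uneven differences. Cd74, the invariant chain, was at 3782, 1020 and 639 at P30 and 176, 0.424 and 248 at P60, which kept the groups apart with a log2 difference of -5.09 ± 1.59 and an adjusted p of 0.0794. H2-Ab1, a beta chain of class II, was at 1058, 206 and 142 and at 58.8, 0 and 36.5 (adjusted p 0.107). All 9 tested class II genes had a negative difference, 6 without overlap, none passed, and the median was -2.86. The levels differed several-fold within each age. Fgd2, an activator of the GTPase Cdc42 expressed in antigen-presenting cells, was among the 12 largest decreases. It was at 149, 112 and 142 at P30 and 27.5, 0.554 and 6.30 at P60 (-4.29 ± 0.70, adjusted p 0.0015). Pik3ap1, an adaptor of B cells and macrophages, and Il2rg, the common cytokine receptor chain, were picked after their values were seen. Il2rg was at 13.8, 9.82 and 11.6 at P30 and had no read at P60 (at least 106-fold lower, adjusted p 0.0408), and Pik3ap1 fell by 3.61 (adjusted p 0.0442). Both lost their call whichever of the 6 libraries was left out (adjusted p up to 0.111).

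Genes of lysosomes followed the same direction. Ctsz, a lysosomal cathepsin, was at 1549, 1575 and 1777 at P30 and 487, 395 and 681 at P60 (-1.68 ± 0.41, adjusted p 0.0257). Npc1, which exports cholesterol from lysosomes, fell from 9.14, 5.69 and 13.4 to 3.51, 0 and 1.27 (-2.19, adjusted p 0.0356). Of 20 genes of phagocytosis and lysosome 3 fell, Ctsz and Npc1 among them, none rose, 18 had a negative difference and 11 had P60 libraries all below P30, with a median of -1.38. The calls on Ctsz and Npc1 were lost without P60 replicate 3 (adjusted p 0.0807 and 0.155) and without P30 replicate 1 or 3, that on Ctsz also without P30 replicate 2 or P60 replicate 1, and that on Npc1 without P60 replicate 4.

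Cholesterol synthesis genes were lower in part. Dhcr7, the last enzyme of the pathway to cholesterol, was at 22.8, 32.0 and 31.4 at P30 and 4.17, 0.0342 and 1.63 at P60 (-3.61 ± 0.75, adjusted p 0.0102). Sqle, the squalene epoxidase, fell from 22.5, 9.77 and 14.1 to 6.41, 0 and 0.893 (-2.70, adjusted p 0.0476). Of 22 genes 3 fell, Dhcr7 and Sqle among them, none rose and 17 had a negative difference, with a median of -1.13. In P60 replicate 3, 7 of the 22 had fewer than 3 reads. Without that library the median was -0.47, beside -0.23 over all genes. The calls on Dhcr7 and Sqle were then lost (adjusted p 0.0562 and 0.184). That on Sqle was also lost when any P30 library or P60 replicate 4 was left out.

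**Figure D3:**
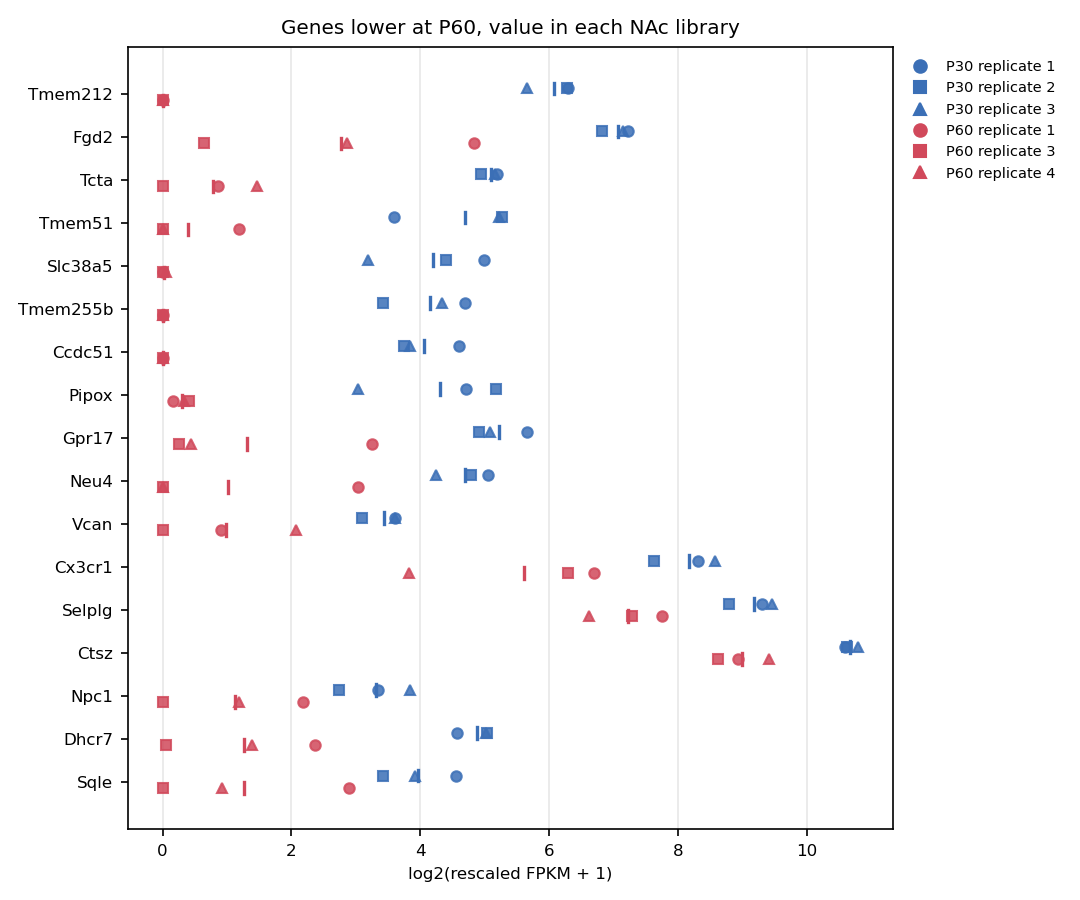
Levels of 17 genes lower at P60 in each NAc library, as log2(rescaled FPKM + 1). Points are libraries (3 at P30 in blue, 3 at P60 in red), vertical bars are group means. All P60 points lie below all P30 points of the same gene, and P60 replicate 3 is at or near 0 for most of them.

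Transcripts of the mitochondrial genome, which encodes core subunits of the respiratory chain, were higher at P60. mt-Nd6, the 1 complex I subunit encoded on the light strand, was at 182, 128 and 45.7 at P30 and 1154, 1113 and 1256 at P60. It had the smallest adjusted p of the list, 0.000249, with a log2 difference of 3.51 ± 0.45 (SE). mt-Nd2, another complex I subunit, was at 666, 642 and 355 and at 2422, 2969 and 4356 (2.56 ± 0.39, adjusted p 0.00112). mt-Atp6, of the ATP synthase, rose by 3.28 (adjusted p 0.0042), mt-Nd4 by 1.72 (adjusted p 0.00417), mt-Co1, of cytochrome c oxidase, by 1.84 (adjusted p 0.0096) and mt-Nd5 by 1.77 (adjusted p 0.0134). mt-Atp8 rose by 2.57 (adjusted p 0.0455), a call lost without P30 replicate 2 or 3 or P60 replicate 3 or 4 (up to 0.22).

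Of the 13 mitochondrially encoded proteins 7 rose, and all 13 had P60 libraries above all P30 libraries, with a median of 1.77. mt-Nd6 and mt-Nd5, mt-Nd4 and mt-Nd4l, and mt-Atp6 and mt-Atp8 overlap, so reads in the shared bases cannot be told apart. The short tRNA genes mt-Tn, mt-Tc and mt-Ty were among the 12 largest increases. mt-Tn rested on 3 reads over the P30 libraries against 518 at P60, and mt-Tc and mt-Ty on none against 67 and 50. The call on mt-Ty was lost without P60 replicate 3 (adjusted p 0.0786). Of 38 nuclear genes of oxidative phosphorylation none passed, 33 had a positive difference and the median was 0.74. Left-out libraries moved this: 11 rose without 4 sparse libraries and 8 without P60 replicate 3 and VTA P30 replicate 3, and the median was 0.35 without P60 replicate 4. After quantile normalization 2 rose, and on the deposited scale 1. Rescaled to non-mitochondrial reads, the mitochondrially encoded list had a median of 2.00 and 9 calls. It had 1 call on the deposited scale, 4 without the P7 libraries and 0 with the NAc libraries alone.

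Tmem212 was the largest decrease. This gene of ciliated ependymal cells was at 77.2, 76.9 and 49.3 at P30 and had no read at P60, at least 183-fold lower (adjusted p 0.0252). Slc38a5, an amino acid transporter, fell from 30.9, 20.2 and 8.11 to 0, 0 and 0.0402, and Pipox, the peroxisomal pipecolic acid oxidase, from 25.2, 35.2 and 7.17 to 0.122, 0.323 and 0.255 (-4.01, adjusted p 0.00812). Tmem255b, at least 107-fold lower (adjusted p 0.0109), and Ccdc51, at least 94.0-fold lower (adjusted p 0.0155), had no read at P60. Tcta fell by 4.32 and Tmem51 by 4.30 (adjusted p 0.0215 and 0.0278). Tcta overlaps Rhoa, Tmem255b overlaps Gas6 and Ccdc51 overlaps Tma7. The call on Tmem212 was lost without any 1 library but P60 replicate 1 (adjusted p up to 0.0686), that on Slc38a5 without any but P30 replicate 3 (up to 0.104) and that on Ccdc51 without P30 replicate 1 (0.0553). Tcta and Tmem51 lost theirs without P60 replicate 3 (0.078 and 0.0824) or P30 replicate 3, Tcta without P30 replicate 1, and Tmem51 without P30 replicate 2 or P60 replicate 4.

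Small and ribosomal RNAs were also among the 12 largest decreases. Mir5616, inside Ctnnbip1, was at 29.5, 122 and 15.0 at P30 and had no read at P60, at least 12.5-fold lower (adjusted p 0.00073). Snora31, a small nucleolar RNA inside Tpt1, fell from 85.5, 26.4 and 15.0 to 2.32, 0 and 0, and Scarna13, of Cajal bodies, was at least 20.5-fold lower. They rested on 75, 150 and 140 reads over the P30 libraries, and reads of the host genes cannot be told apart from theirs. CT010467.1, a clone name that overlaps Gm42418 and AY036118, fell from 3701, 1973 and 4540 to 353, 22.9 and 313 (adjusted p 0.0252, and 0.136 without P60 replicate 3). Its call was also lost without P30 replicate 1 or 3.

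Other cell types showed few calls. Fgfr3, a growth factor receptor of astrocytes, was the 1 gene called of 14 astrocyte markers and fell from 115, 198 and 173 to 54.9, 11.9 and 33.3 (-2.45, adjusted p 0.0413, up to 0.167 without a single library, and lost without each but P60 replicate 1). Slc1a2, the main astrocyte glutamate transporter, was at 246, 267 and 246 and at 202, 183 and 246 (adjusted p 0.801). The astrocyte median was -0.32 and turned to 0.02 on the deposited scale, where that of all genes was -0.125. No endothelial gene of 15 passed. Cldn5, of tight junctions, was at 150, 98.3 and 192 and at 103, 59.8 and 515, and the list's median of -0.45 turned to 0.06 after quantile normalization and 0.08 without P60 replicate 3. The median over all genes was 0.02 and -0.23 in those fits. Of 5 tested neutrophil genes S100a8 and Ngp rose from no read. Of the 5, 3 had a positive and 2 a negative difference, and 1 had P60 libraries all below P30. After quantile normalization, and also without 4 sparse libraries, 1 of the 5 was called lower. S100a8, a calcium-binding protein of granulocytes, was at 11.9, 0.574 and 27.9 at P60, at least 23.9-fold higher (adjusted p 0.0248), and Ngp, a granule protein, at 29.9, 0 and 19.0, at least 50.9-fold higher (adjusted p 0.0354). Both calls were lost without any library but P60 replicate 3 (up to 0.113 and 0.128).

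Of the remaining lists 3 had 1 gene called. Klf2, a transcription factor listed with 25 immediate early genes, fell from 22.3, 16.5 and 25.3 to 3.83, 0.216 and 3.32 (-2.91, adjusted p 0.0252), while the list's median was -0.28, or 0.10 after quantile normalization. The median over all genes was 0.02 after quantile normalization. Ltbp1, which binds latent TGF-beta, fell by 2.13 (adjusted p 0.0252) as 1 of 16 genes of TGF-beta signalling, with a median of -0.39. In the monocyte list Vcan, counted above with the precursors, was the 1 gene called of 6 tested, and Chil3, F10 and Itgal were among 4 members with no read. Both Klf2 and Ltbp1 lost their call without P60 replicate 3 (adjusted p 0.121 and 0.0758) or P30 replicate 1, Klf2 without P30 replicate 3, and Ltbp1 without P30 replicate 2 or P60 replicate 1.

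No member passed in 24 of the 43 lists in the fit of the rescaled values. Among them the median was -1.39 for 16 genes of the NF-kB pathway, -1.01 for 16 chemokines and cytokines, -0.85 for 25 interferon-stimulated genes, -0.70 for 15 complement and Fc receptor genes, -0.69 for 12 class I genes and -0.58 for 19 disease-associated microglial genes. It was -0.66 for CSF1 and IL-34 signalling, -0.63 for lipid efflux, -0.63 for lymphocytes, -1.05 for pericytes and fibroblasts, 0.11 for erythroid cells and -0.13 for sex-linked genes. It was 0.10 for glycolysis, 0.20 and -0.13 for ribosomal proteins of the large and small subunit, -0.25 for the proteasome and 0.22 for heat shock. For p53 targets it was -0.33, for the cell cycle -0.36 and for GABA receptors 0.49. All these medians stand beside one of -0.33 over all genes. Several of these medians moved when P60 replicate 3 was left out, where that over all genes was -0.23. They were then -0.07 for disease-associated microglial genes, near 0 for CSF1 and IL-34 signalling, -0.40 for chemokines and cytokines, -0.34 for complement and Fc receptors, -0.53 for interferon-stimulated genes and -0.44 for pericytes and fibroblasts. The median was 0.34 for ribosomal proteins of the small subunit, 0.06 for the proteasome, -0.22 for glycolysis and -0.06 for heat shock, each with the opposite sign. Fitted differences of genes at 0 in 1 group are no bounds. With such genes at their bound, 7 of the 43 medians moved and none changed sign. They went from 2.61 to 3.72 for neutrophils, from -0.92 to -1.41 for monocytes, from -1.22 to -1.33 for border macrophages, to -0.96 for interferon-stimulated genes, to -1.08 for chemokines and cytokines and to -0.45 for the cell cycle, beside the ependymal and choroid list given above.

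The same comparison in the substantia nigra pars compacta (SNc), where dopamine neurons have their cell bodies, called 14 genes of 18888 (0.0741%), 9 higher (0.0476%) and 5 lower (0.0265%). Dopaminergic markers were low in these SNc libraries too, with a list median of log2(level + 1) of 0 to 0.504 at P30 and 0 to 1.604 at P60. That of homeostatic microglia was 7.371 to 8.118 and 7.116 to 8.533, so the SNc libraries also go against the label. The difference between the changes in the 2 regions was tested itself, and 16 genes passed (0.0847%), 2 with a more positive change in NAc (0.0106%) and 14 with a more negative one (0.0741%). The test takes NAc and SNc libraries as independent. They carry the same replicate numbers at each age, and the labels do not say whether equal numbers share mice. A pairing of the regions within an age was not tested. Ttr was at 1135, 176 and 7765 in SNc at P30 and at 57.3, 19.9 and 82.9 at P60, the opposite order to NAc. The NAc change exceeded the SNc change by 12.18 ± 1.502 on the log2 scale (SE, adjusted p 0.000445). Slc13a4, a sulfate transporter, had mean levels of 1.20 ± 0.52 and 10.1 ± 8.0 (SD, n = 3) in NAc at P30 and P60 and of 5.50 ± 2.61 and 0.120 ± 0.207 in SNc (difference 4.53 ± 0.82, adjusted p 0.0264). Neu4 was at 25.7 ± 7.2 and 2.40 ± 4.16 in NAc and at 0.634 ± 0.744 and 8.48 ± 5.59 in SNc (-6.05 ± 1.14, adjusted p 0.0286).

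No myelin gene passed the test of the difference. Mbp had a change of 2.53 ± 0.52 in NAc and 3.11 ± 0.52 in SNc (SE), where its mean level was 214 ± 96 at P30 and 1785 ± 422 at P60 (SD, n = 3), and the difference of -0.58 ± 0.74 had an adjusted p of 0.824. The myelin list had a median of 1.12 in NAc and 1.05 in SNc. The medians of homeostatic microglia (-1.39 in NAc, 0.09 in SNc), oligodendrocyte precursors (-1.58 and 0.64) and mitochondrially encoded proteins (1.77 and 0.05) lay further apart, with no difference called for any microglial or mitochondrially encoded gene. The difference for mt-Nd6 had an adjusted p of 0.0511. That for Pcsk1n had one of 0.063, with a change of 4.63 in NAc and -0.05 in SNc.

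**Figure D4:**
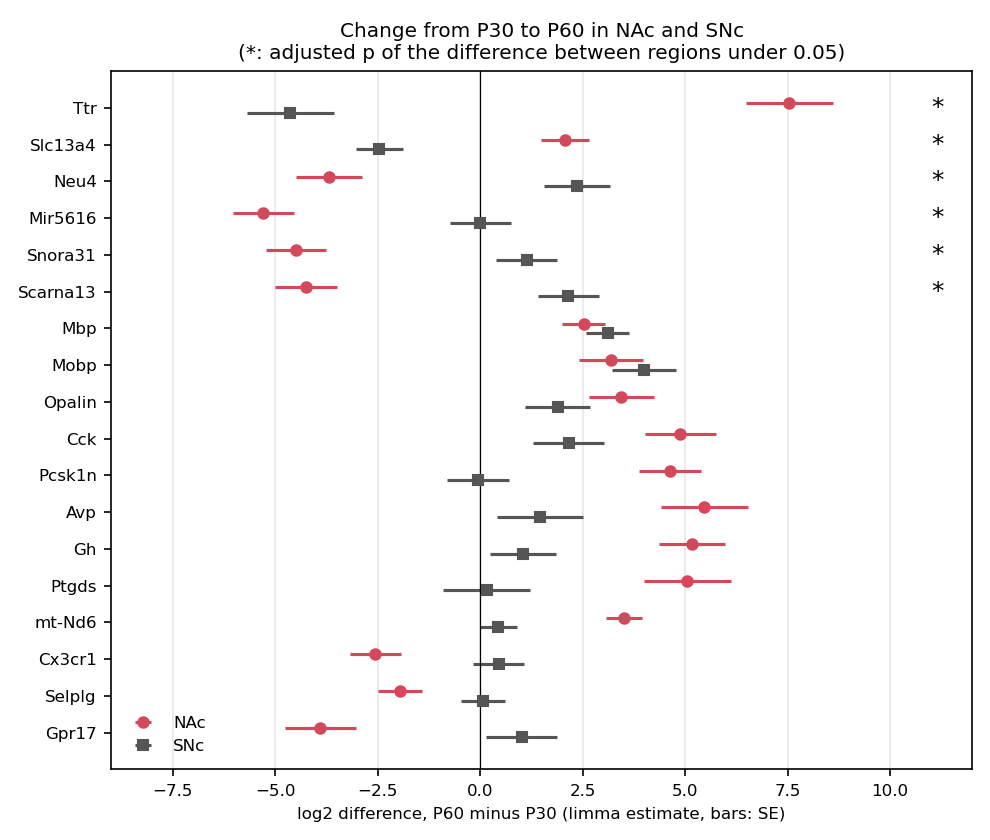
Change from P30 to P60 in NAc (red circles) and in SNc (grey squares) for 18 genes, as the log2 difference with its SE from the fit of all 27 libraries. Stars mark the 6 genes whose difference between regions passed. Mbp has a positive change in both regions (2.53 and 3.11), while Ttr and Neu4 lie on opposite sides of 0.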

How the data were processed

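RNA of DAT+ sorted cells was measured by SMART-seq2 with 150 bp paired-end sequencing, per the labels' protocols. The authors deposited FPKM per gene, and HISAT2 with GRCm38 is named in the submitters' processing notes. Read counter, annotation and strand use are not given in these sources. The deposited column of VTA P30 replicate 3 is a signal in another unit, and gene length is another deposited unit (bases). Reads recovered from FPKM and length were whole within 0.02 for 100% of values under 1000 reads. Of 54532 gene IDs 54409 had a symbol by ID, which replaced the names of the table, since 443 of these stood on their own row.

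Each library was rescaled by its sum of FPKM times kb to 1000000. Genes that reached a value of 1 in 3 or more libraries were fitted with limma 3.58.1 in R 4.3.3 (lmFit, eBayes with trend and robust) on log2(value + 1), with a term for each group of region and age over all 27 libraries, two-sided, with Benjamini-Hochberg adjustment and a threshold of 0.05. On this scale fold changes of low genes are understated. The test recovered the sign of changed genes on simulated data but called more unchanged genes than its threshold allows. Beyond counting error, each simulated gene had the same spread in every group, and calls were not split by level. In the data the NAc P60 libraries varied more among themselves than those of P30, which the simulation did not copy. A gene at 0 in a group has its fold given against a floor of 3 reads per library, which covers counting error only.

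The members and lists were chosen with earlier results of these data known. Named genes were the 12 largest changes in each direction among those past the threshold with a mean of at least 5 and groups that do not overlap, up to 4 of each list with at least 3 calls, 15 markers in any case, and for the difference from SNc up to 4 in each direction with that mean. The other called members of the lists and the genes so marked were chosen after their values were seen. The alternatives were the deposited scale, quantile normalization, a pseudocount of 0.1, other filters, voom, fits of other sets of libraries, weights, vooma and each library left out. Some members of the lists are counted but not reported here by name. Promoters were matched by symbol for 23 of 37 genes.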

Additional observations from a re-analysis of the deposited data

Results flagged for a closer look

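For 6 genes the change from P30 to P60 in NAc differed from that in SNc by a test of the difference itself (limma, Benjamini-Hochberg over all genes). Ttr had a difference of 12.18 on the log2 scale (NAc change minus SNc change), with adjusted p of 0.000445, and rested on high levels in SNc at P30 and in NAc at P60. The difference was 4.53 for Slc13a4 and -6.05 for Neu4, which encodes a sialidase of oligodendrocyte precursors. It was -5.29 for Mir5616, which had no read in SNc at either age, -5.63 for Snora31 and -6.41 for Scarna13. The values of Mir5616, Snora31 and Scarna13 come from short genes inside or beside other genes. They are 6 of the 16 genes that passed this test: up to 4 in each direction with the smallest adjusted p, among those with a mean level of at least 5 in NAc and an established gene symbol.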

How the results depend on the processing

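Main counts were 170 higher, 327 lower, 16 differing from SNc and 37 list genes. Higher genes numbered 478 after quantile normalization, 69 with a pseudocount of 0.1, 69 with voom and 518 without 4 sparse libraries. Lower genes numbered 172 on the deposited scale, 159 with the pseudocount, 203 with a filter of 5 and 840 without the 4 libraries. Every fit on the deposited scale includes VTA P30 replicate 3 in its other unit, so its counts do not show the scaling alone. Genes differing from SNc numbered 9 on the deposited scale, 26 after quantile normalization, 9 with the filter of 5, 152 without the 4 libraries and 77 with voom. List genes called numbered 21 on the deposited scale, 69 after quantile normalization, 20 with the pseudocount and 107 without the 4 libraries. With the compared libraries alone all these counts were 0. The replicate number as a block gave 134 higher and 211 lower genes, 289 of them shared with the main calls. The ages share only the numbers 1 and 3, whose libraries had correlations of deviations of 0.008 and -0.046, so the numbers do not pair them.

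Other settings were chosen after seeing the data. Without P60 replicate 3 and VTA P30 replicate 3, 374 genes were higher, 543 lower, 85 differed from SNc and 75 list genes were called. Weights per group gave 60, 92, 3 and 22, a fit without P7 libraries 61, 104, 1 and 14, and genes with 3 reads in each NAc library 103, 65, 2 and 23. Vooma gave 196 higher and 460 lower, with 476 of the main calls shared, and 81 differing from SNc. With each library left out in turn the counts ranged from 101 to 204, 131 to 471, 2 to 48 and 19 to 41. These fits take the thinned group to be as variable as the rest. Of 42 named calls tested, none changed direction in any setting, and 19 were lost without P60 replicate 3, 14 on the deposited scale, 12 with voom and 17 with weights per group. The medians of the microglial, lysosomal, class II, precursor, myelin, pan-neuronal and mitochondrially encoded lists kept their sign in every setting.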
